A study of Mus musculus with 8 samples.

Results

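Integrin chains and the focal adhesion proteins that bind them inside the cell were followed as a list of 41 gene symbols, 21 integrin chains and 20 intracellular proteins, matched by name to the 47643 genes of a table of RNA abundance in mouse quadriceps muscle. All 41 symbols were found, in 43 rows of the table, because Itgam and Tgfb1i1 each named a second, nearly silent gene model. Abundance was given in TPM, which is corrected for transcript length and for the total of the library, and 38 of the 41 members had the mean of at least 0.5 TPM needed for the test. The integrin chains Itgal, Itgax and Itga10 lay under that level. The libraries came from 4 Nup210-/- and 4 Nup210+/+ mice labelled as C57BL/6, backcrossed to C57BL/6J in the methods of the study, with 1 library for each mouse, and the comparison asked how muscle without the nuclear pore protein Nup210 differs in these genes. The knock-out was constitutive: exon 2 of Nup210 was removed in the whole animal by crossing floxed mice with a line that carries Cre in the Hprt locus, so the deletion was not limited to one cell type. The age and sex of the mice sequenced were not given in the sources used here.

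Integrins are pairs of 1 alpha and 1 beta chain that span the cell membrane and hold the cell to laminin, collagen, fibronectin and other ligands. On the inside, talin and kindlin bind the beta chain, and vinculin, the complex of ILK with PINCH and parvin, focal adhesion kinase, paxillin, zyxin and the filamins join the receptor to actin and to signalling. In muscle fibers the main receptor pairs the alpha chain Itga7 with the beta chain Itgb1, and it anchors the fiber to the laminin of its basement membrane at costameres and at the junction with the tendon. Other chains belong to fibroblasts, vessels and blood cells that share the tissue.

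In the libraries labelled Nup210-/-, Nup210 itself stood at 9.54, 10.8, 11.9 and 8.81 TPM, against 5.71, 10.1, 9.19 and 6.71 TPM in the libraries labelled Nup210+/+. A gene total that counts reads outside the deleted exon does not check the labels, and no exon values were analysed here. Each library summed to 1000000 TPM within rounding, so depth is unknown. Libraries listed between 18185 and 19357 genes above 0. Nup210+/+ replicate 2 stood apart: 6 marker genes of granulocyte precursors summed to 381.69 TPM there and to 0.31 to 2.12 TPM in the other 7 libraries. Results that rest on this library are given with and without it. In whole muscle, fewer cells of a type and less RNA per cell cannot be told apart.

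The fit compared log2(scaled TPM + 1), where each library was scaled by the median ratio of its genes to their geometric mean over the 8 libraries. No member passed an adjusted p of 0.05 (limma, Benjamini-Hochberg over 14229 genes), with a lowest adjusted p of 0.151, and of all tested genes 0.112% passed. At an unadjusted p of 0.05, 7 members were lower in Nup210-/- muscle, which is 18.4% of the 38 against a background of 7.18% of all tested genes. By the same limit 4 members were higher, which is 10.5% against a background of 7.00%. The 4 libraries of one genotype lay fully below or above the 4 of the other, on scaled values, for 8 of the 38 tested members. Of these, 4 were lower (10.5% against 4.60% of all tested genes) and 4 were higher (10.5% against 4.78%). The median log2 fold change of the 38 members was -0.0013, beside -0.0061 over all tested genes, with 19 estimates on each side of 0. The list had no common direction on this scale.

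The balance between the directions depended on the scaling. With TPM taken as deposited, the median of all genes moved to -0.085 and that of the members to -0.079, and 8 members were lower and 1 was higher at an unadjusted p of 0.05, against backgrounds of 11.8% and 2.35%. On that scale 8 tested members did not overlap between the genotypes, all lower in Nup210-/- muscle, against a background of 6.87% lower and 1.54% higher. The members higher in Nup210-/- muscle are therefore higher relative to the other genes of their library, on scaled values.

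**Figure D1:**
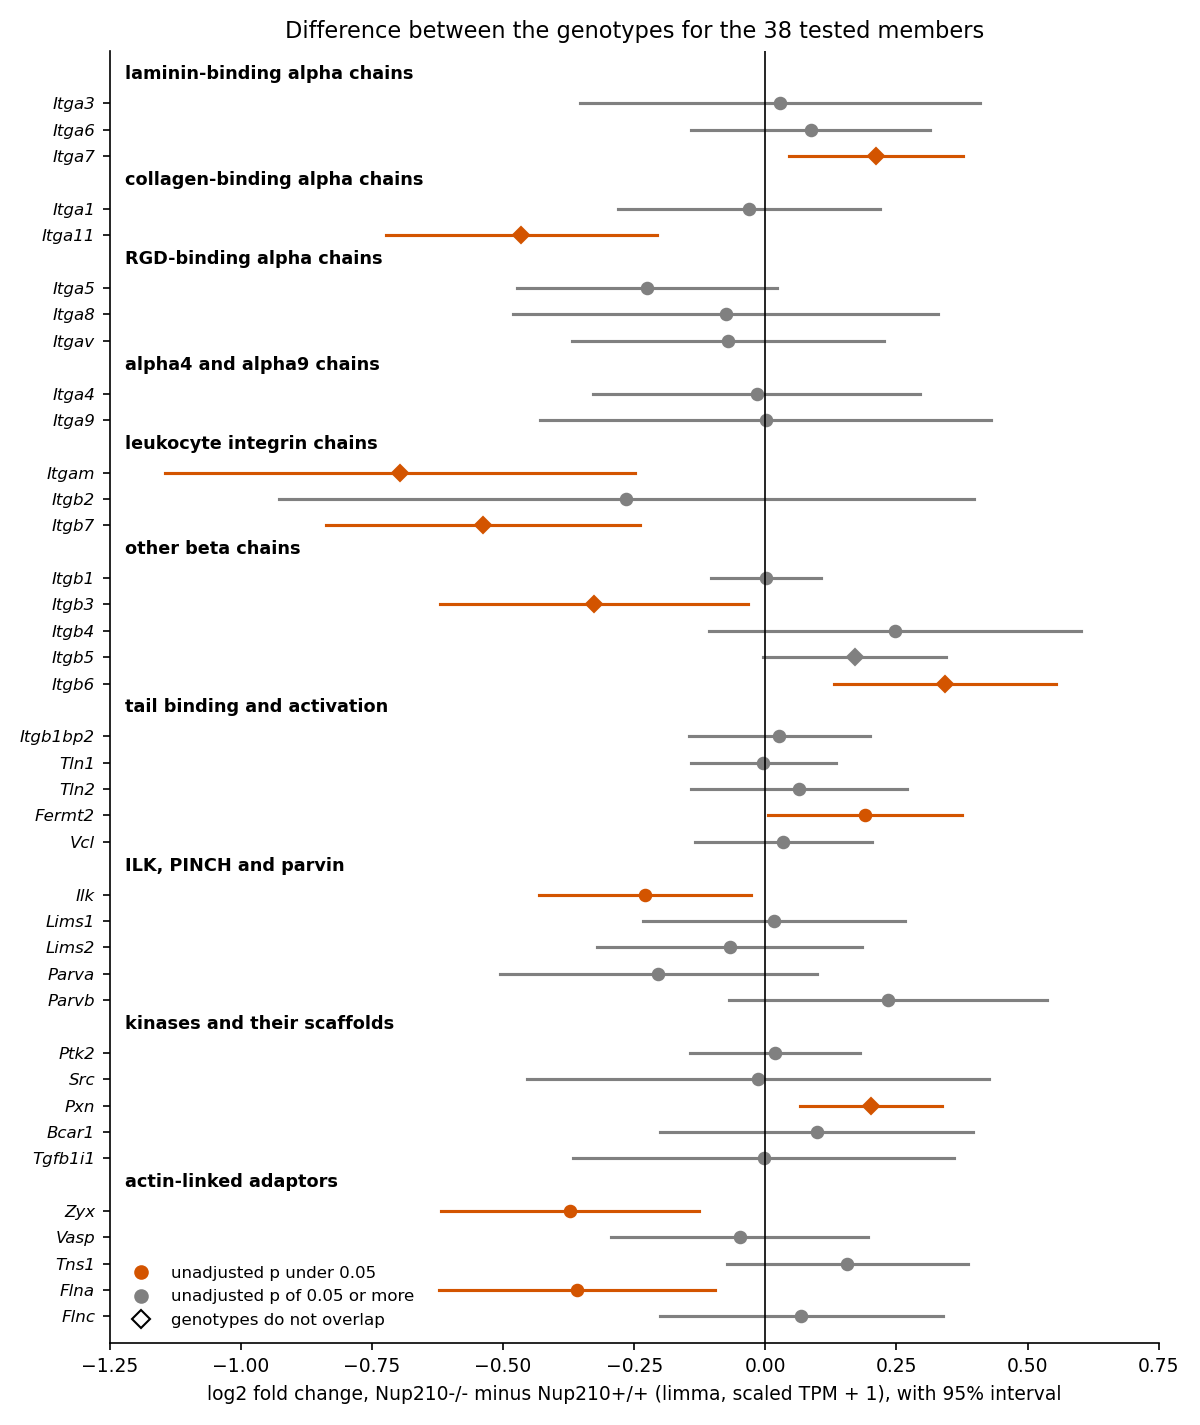
Log2 fold change of the 38 tested members (Nup210-/- minus Nup210+/+ on log2(scaled TPM + 1), horizontal axis) by role, with lines for the 95% confidence interval. Orange marks an unadjusted p under 0.05 and diamonds mark members whose genotypes do not overlap; the estimates run from -0.70 for Itgam to 0.34 for Itgb6, and none passed an adjusted p of 0.05.

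Members differed far more in level than between genotypes. TPM is corrected for transcript length, so levels can be set side by side. The highest were Itgb1bp2 (melusin, a muscle protein that binds the tail of the beta1 chain), Flnc (the filamin of striated muscle), Itgb1 (the common beta1 chain) and Fermt2 (kindlin 2), with means over the 8 libraries of 148, 137, 130 and 123 TPM. The ranges of these 4 overlapped from one to the next, from 106.39 to 161.58 TPM in all. The next member, Tns1 (tensin 1), averaged 47.2 TPM and did not reach the range of Fermt2. Below it 17 further members averaged 10 TPM or more, 14 averaged between 1 and 10 TPM and 5 averaged under 1 TPM. The last break in the order lay between Parva, whose lowest library was 7.04 TPM, and Bcar1, whose highest was 6.42 TPM. Below that break, from Bcar1 down to Itga10 with a mean of 0.391 TPM, the ranges of all neighbours overlapped.

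**Figure D2:**
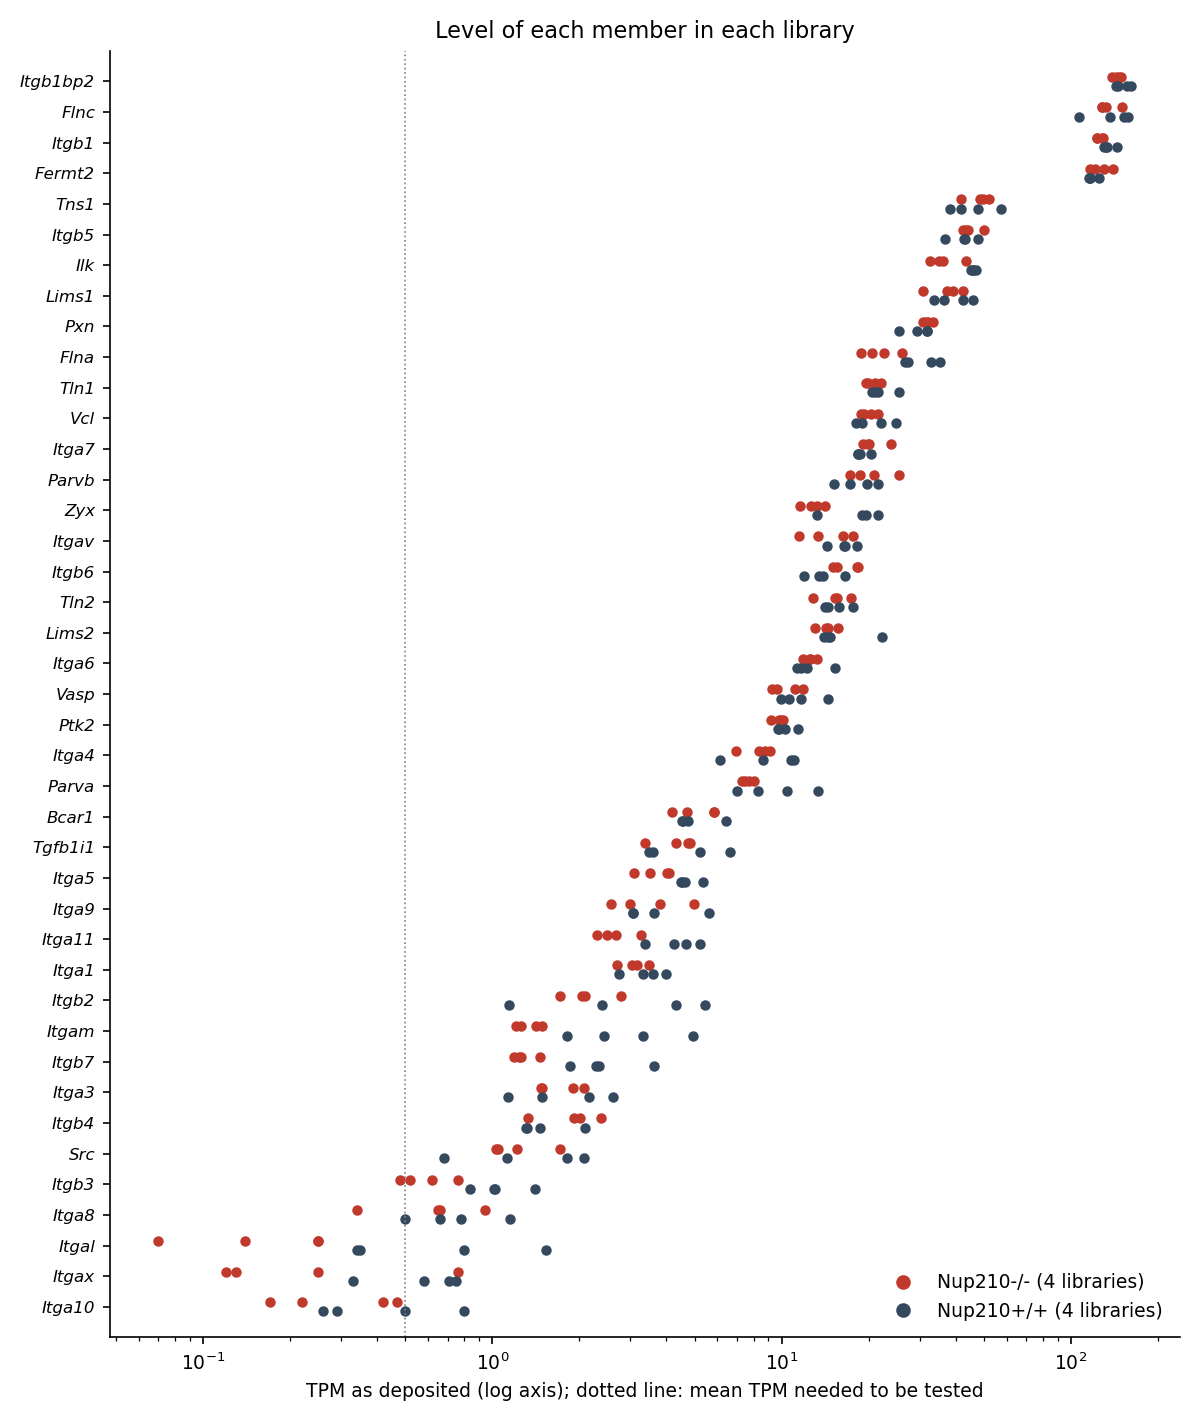
TPM as deposited (horizontal log axis) of the 41 members in each of the 8 libraries, ordered by mean level, Nup210-/- in red and Nup210+/+ in dark blue. The means run from 148 TPM for Itgb1bp2 to 0.391 TPM for Itga10, and the gap between Fermt2 and Tns1 separates 4 members from the rest.

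Among the laminin-binding alpha chains, Itga7 was the most abundant. Its TPM in the 4 Nup210-/- libraries were 20.11, 23.88, 19.94 and 19.07, and in the 4 Nup210+/+ libraries 18.41, 18.70, 20.31 and 18.37. The genotypes overlapped as deposited and came apart on scaled values, at 19.9 to 24.2 against 17.9 to 19.3. The log2 fold change was 0.21 (SE 0.0733, unadjusted p = 0.0180, limma adjusted p = 0.249). It lay past the unadjusted limit in each leave-out of 1 library and under every other setting except TPM as deposited, where it was 0.121. Exons of Mettl7b overlap Itga7 on the opposite strand. The libraries were directional, but whether the counting used strand is not stated in the sources used here. Itga6, which pairs with Itgb1 or Itgb4, ranged from 11.34 to 15.3 TPM, and its log2 fold change was 0.09 (95% interval -0.14 to 0.31). Itga3 ranged from 1.13 to 2.61 TPM, with a log2 fold change of 0.03 and an interval of -0.35 to 0.41. Both intervals include 0.

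Of the collagen-binding chains, Itga11, the alpha11 chain that fibroblasts use to hold fibrillar collagen, had 2.68, 3.27, 2.49 and 2.3 TPM in Nup210-/- muscle. In Nup210+/+ muscle it had 4.23, 4.69, 5.21 and 3.37 TPM. Every Nup210-/- library lay below every Nup210+/+ library, on deposited and on scaled values (two-sided exact permutation p = 0.0286, the smallest that 4 against 4 allow). The means were 2.69 ± 0.420 and 4.38 ± 0.780 TPM (SD, n = 4), a ratio of 0.614. The log2 fold change was -0.47 (SE 0.114, unadjusted p = 0.00272, limma adjusted p = 0.151), the lowest p among the members, and between -0.59 and -0.42 under all alternatives. All 6 fibroblast markers had lower estimates in Nup210-/- muscle, and none passed an adjusted p of 0.05. At an unadjusted p of 0.05, 3 of them (Dcn, Col1a1 and Col3a1) were lower, beside 7.18% of all tested genes. Their summed TPM ranged from 678 to 790 against 804 to 1307, with no overlap. Dcn was the largest part of that sum and overlapped by itself, at 418 to 485 against 451 to 850 TPM. On scaled values 1 of the 6 did not overlap, beside 4.60% of all tested genes that were lower in this way. None of the 6 was at 0, and their part in the difference of Itga11 was not tested. Itga1, a collagen and laminin receptor of several cell types, ranged from 2.7 to 4.0 TPM with a log2 fold change of -0.03 (95% interval -0.28 to 0.22). Itga10, known from cartilage, ranged from 0.17 to 0.8 TPM and was not tested.

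The chains that recognise the RGD sequence of fibronectin and vitronectin had lower estimates with intervals that include 0. Itga5, the fibronectin receptor chain, had 4.02, 4.07, 3.10 and 3.52 TPM in Nup210-/- and 5.33, 4.50, 4.64 and 4.54 TPM in Nup210+/+ muscle. These values did not overlap as deposited and did on scaled values, where the log2 fold change was -0.22 (95% interval -0.47 to 0.02, unadjusted p = 0.0703). Itgav, which pairs with Itgb1, Itgb3, Itgb5 or Itgb6, ranged from 11.46 to 18.16 TPM (log2 fold change -0.07). Itga8 ranged from 0.34 to 1.15 TPM (-0.08). The alpha4 and alpha9 chains, Itga4 and Itga9, averaged 8.73 and 3.71 TPM, with log2 fold changes of -0.02 and 0.00050.

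Leukocyte integrin chains gave the largest differences of the list. Itgam, the alphaM chain of macrophages and neutrophils, had 1.48, 1.41, 1.26 and 1.21 TPM in Nup210-/- and 2.43, 4.93, 3.32 and 1.81 TPM in Nup210+/+ muscle. The genotypes did not overlap, and replicate 2 was the highest Nup210+/+ library. The log2 fold change was -0.70 (SE 0.198, unadjusted p = 0.00649, limma adjusted p = 0.189), and -0.50 without Nup210+/+ replicate 2 (unadjusted p = 0.00656, adjusted p = 0.208). The mean of Nup210-/- libraries was 0.429 times that of Nup210+/+ libraries. Itgam lies on chromosome 7 between 128062640 and 128118491 (mm10, plus strand), and a second gene model with the same name in the table shares its strand and its place, at 0 to 0.76 TPM. The split of reads between these models is uncertain, and the estimate with both rows summed was -0.72.

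Itgb7, the beta chain of the homing receptors of lymphocytes, had 1.24, 1.46, 1.26 and 1.19 TPM in Nup210-/- and 2.33, 2.29, 3.62 and 1.86 TPM in Nup210+/+ muscle. No library of one genotype reached the other. The log2 fold change was -0.54 (SE 0.133, unadjusted p = 0.00278, limma adjusted p = 0.151), -0.56 without Nup210+/+ replicate 2, and the ratio of means was 0.510. Itgal, the alphaL chain of lymphocytes, was below the level for the test. It had 0.14, 0.25, 0.25 and 0.07 TPM in Nup210-/- and 0.34, 1.53, 0.80 and 0.35 TPM in Nup210+/+ libraries, which did not overlap. Itgb2, the partner of Itgal, Itgam and Itgax, did overlap: it had 1.72, 2.09, 2.04 and 2.78 TPM in Nup210-/- and 2.39, 5.42, 4.32 and 1.14 TPM in Nup210+/+ muscle. Its log2 fold change was -0.26 (95% interval -0.93 to 0.40) and -0.03 without Nup210+/+ replicate 2. Itgax ranged from 0.12 to 0.76 TPM over both genotypes and was not tested.

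Together the 5 leukocyte chains summed to 4.83 to 5.97 TPM in Nup210-/- and 5.49 to 14.9 TPM in Nup210+/+ muscle, which overlapped at Nup210+/+ replicate 4. All of 14 leukocyte markers had lower estimates in Nup210-/- muscle, and their sum ranged from 160 to 178 TPM against 194 to 386 TPM with no overlap, with none at 0. Without Nup210+/+ replicate 2 the upper end of the latter range was 374 TPM. Lyz2 was the largest part of the sum, with means of 96.3 and 164 TPM. Cd52 was the only one of the 14 past an adjusted p of 0.05 (log2 fold change -0.81, limma adjusted p = 0.0490). That call held under 6 of 18 alternatives, of which 1 was a leave-out, and over the 8 leave-outs of 1 library the adjusted p ran from 0.0464 to 0.139. The part of these cells in the differences of Itgam, Itgb7 and Itgal was not tested. Of the 6 neutrophil markers none was at 0 in all libraries, and their sum was 18.5 TPM in Nup210+/+ replicate 2 and 0.87 to 2.2 TPM in the others.

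**Figure D3:**
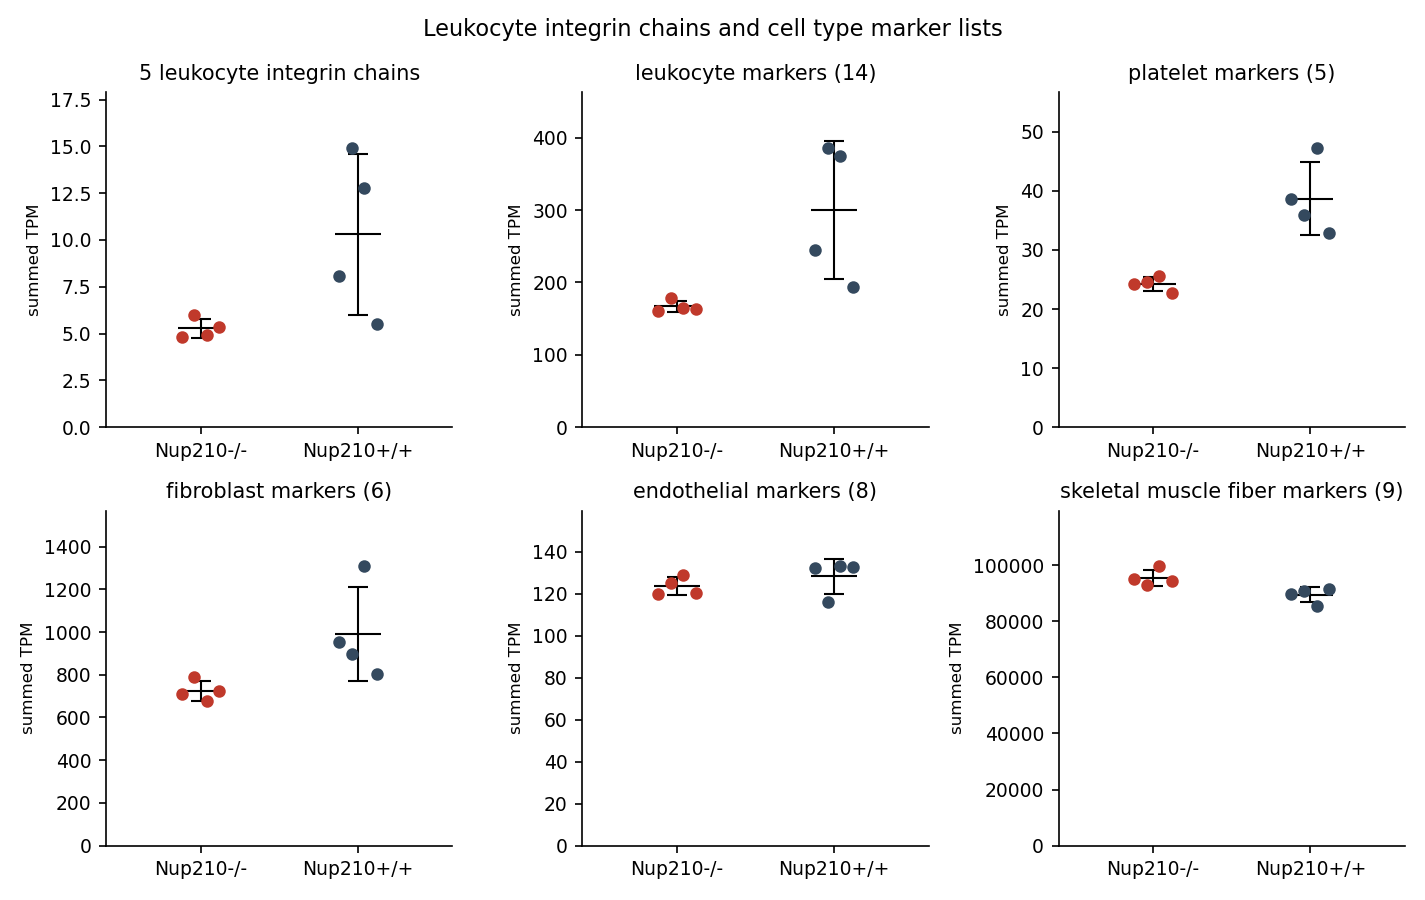
Summed TPM as deposited (vertical axes, each from 0) of 5 leukocyte integrin chains and of 5 cell type marker lists, with 1 point for each of 4 libraries a genotype, the mean as a horizontal line and the SD as error bars. The sums of leukocyte, platelet (nearly all Pf4) and fibroblast markers lie lower in all 4 Nup210-/- libraries, and that of skeletal muscle fiber markers lies higher. The integrin chains overlap only at the lowest Nup210+/+ library, at 5.49 TPM, and the endothelial markers only at Nup210+/+ replicate 2.

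The other beta chains had estimates in both directions. Itgb1, the partner of most alpha chains, had 123.39, 128.08, 129.53 and 123.37 TPM in Nup210-/- and 131.84, 132.86, 143.94 and 129.81 TPM in Nup210+/+ muscle. These values lay lower in each Nup210-/- library as deposited, by a ratio of means of 0.937, and they overlapped once scaled. Its log2 fold change was 0.0013 with a 95% interval of -0.10 to 0.11. Itgb3, the beta chain of the platelet fibrinogen receptor and of a vitronectin receptor, had 0.62, 0.48, 0.76 and 0.52 TPM in Nup210-/- and 1.02, 1.01, 1.40 and 0.84 TPM in Nup210+/+ libraries. The genotypes did not overlap. Its log2 fold change was -0.33 (SE 0.130, unadjusted p = 0.0330, limma adjusted p = 0.304), and -0.66 with a pseudocount of 0.1, since the added 1 weighs heavily at this level. It lay past the unadjusted limit in 3 of 8 leave-outs of 1 library. The 5 platelet markers summed to 22.8 to 25.6 against 32.9 to 47.3 TPM, nearly all of it Pf4 (log2 fold change -0.53, limma adjusted p = 0.0490). The call of Pf4 held under 5 of 18 alternatives and in none of the 8 leave-outs of 1 library, where its adjusted p ran from 0.0521 to 0.139. Itga2b, the alpha chain that pairs with Itgb3 in platelets, overlapped at 0.5 to 1.13 against 0.51 to 1.86 TPM (log2 fold change -0.25, unadjusted p = 0.241, limma). Ppbp, a platelet chemokine, had a log2 fold change of -0.53 (limma adjusted p = 0.306), and Gp9 and Gp1bb did not exceed 0.51 TPM. Of the 5, Gp1bb alone had a higher mean in Nup210-/- muscle, at 0.1725 against 0.145 TPM. The part of these markers in the difference of Itgb3 was not tested.

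Itgb6, a beta chain that pairs with Itgav and is best known from epithelia, was higher in Nup210-/- muscle, at 15.57, 18.23, 15.04 and 18.42 TPM against 13.90, 13.47, 16.55 and 12 TPM. Nup210+/+ replicate 3 reached into the Nup210-/- range as deposited. After scaling the genotypes came apart, at 14.98 to 19.69 against 12.6 to 14.7. Nup210-/- and Nup210+/+ muscle differed by a log2 fold change of 0.34 (SE 0.0937, unadjusted p = 0.00518, limma adjusted p = 0.179), between 0.25 and 0.41 under all alternatives. Epithelial markers were near 0, with a sum of at most 0.59 TPM and Krt5 and Krt14 at 0 in all 8 libraries. Itgb5, a vitronectin receptor chain, had 43.58, 42.34, 43.96 and 49.95 TPM in Nup210-/- and 43.05, 42.86, 47.88 and 36.80 TPM in Nup210+/+ muscle. It overlapped as deposited and not on scaled values (42.9 to 53.4 against 38.6 to 42.6). The fitted log2 fold change was 0.17 (SE 0.0771, unadjusted p = 0.0540, limma adjusted p = 0.361), and 0.104 without Nup210-/- replicate 4. Itgb4, the partner of Itga6 in hemidesmosomes, ranged from 1.31 to 2.37 TPM, with a log2 fold change of 0.25 and an interval of -0.11 to 0.60.

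Within each library the alpha chains other than the leukocyte ones, 11 in all, summed to 67.0 to 83.5 TPM, and Itgb1 stood at 1.64 to 1.94 times that sum in both genotypes. Itga7 made up 27.6%, 30.6%, 29.4% and 27.5% of the alpha sum in Nup210-/- and 24.2%, 23.5%, 24.3% and 27.4% in Nup210+/+ libraries. These shares did not overlap, with Nup210+/+ replicate 4 just under the lowest Nup210-/- library. The alpha sum includes Itga11 and Itga5, which had lower estimates in Nup210-/- muscle. Itga7 over Itga6 overlapped, at 1.52 to 1.90 in Nup210-/- and 1.22 to 1.75 in Nup210+/+ libraries. Itgb6 stood at 0.116 to 0.149 of Itgb1 in Nup210-/- and at 0.0924 to 0.115 in Nup210+/+ muscle, again without overlap. Such ratios within a library do not depend on its scaling, and how often ratios of other genes fail to overlap was not examined. Itgb5 over Itgb1 overlapped between the genotypes, at 0.331 to 0.405 against 0.283 to 0.333.

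**Figure D4:**
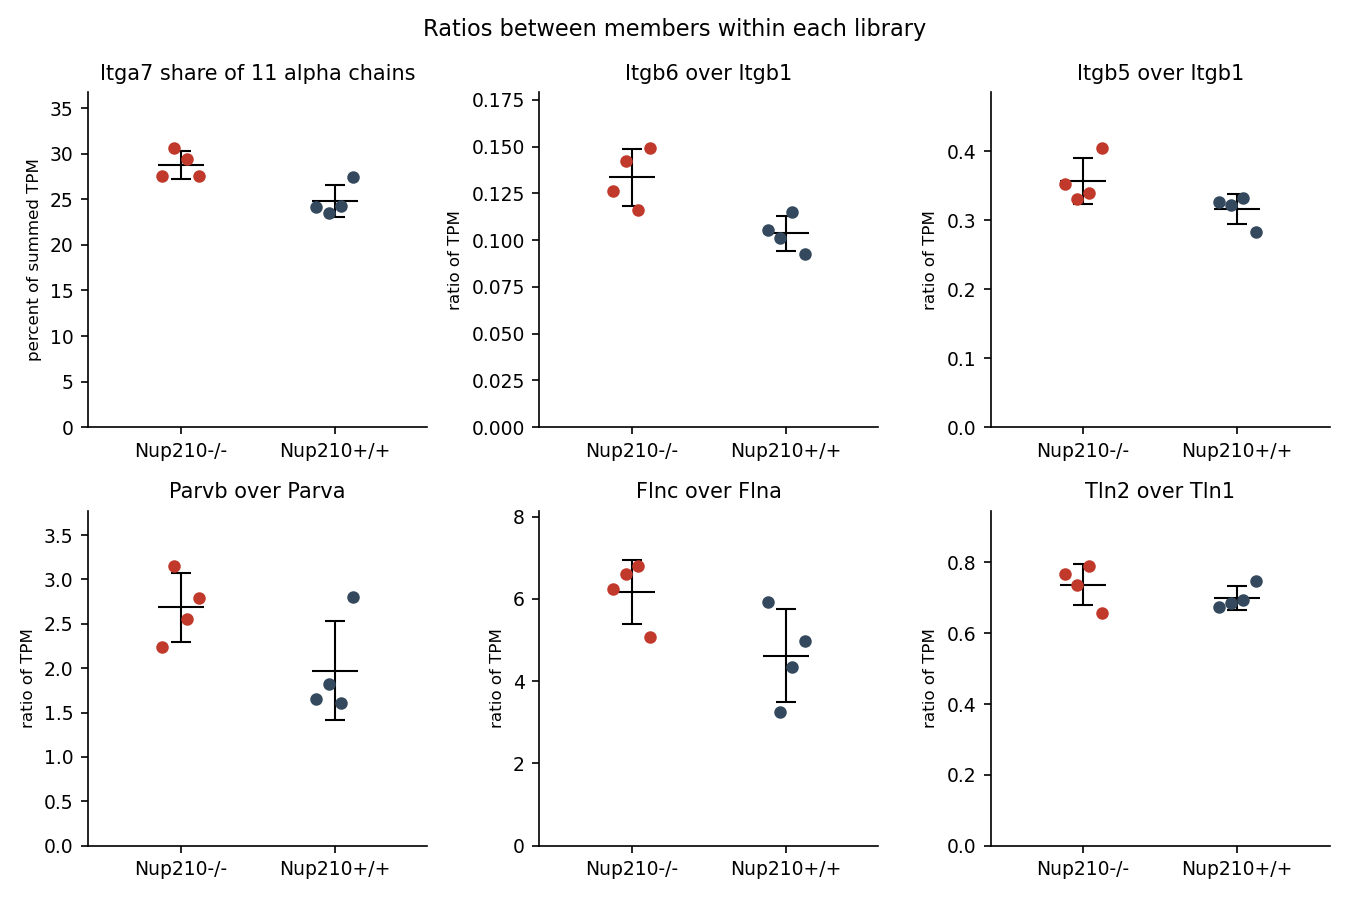
Ratios between members within each library (vertical axes from 0), 1 point for each of 4 libraries a genotype, with the mean and SD. The Itga7 share of 11 alpha chains and Itgb6 over Itgb1 do not overlap between genotypes, while Itgb5 over Itgb1, Parvb over Parva, Flnc over Flna and Tln2 over Tln1 do.

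Promoter sequences from RefSeq (GRCm38.p6), each from 250 bases before to 50 bases after an annotated start, were matched for 28 of the 41 members, in 35 windows of 300 bases. Among the 8 tested members whose genotypes do not overlap on scaled values, Itga11, Itgam, Itgb5, Itgb6 and Itgb7 had a window. Those of Itga11, Itgb7 and Itgb6 are shown because these members had the 3 lowest unadjusted p and each window holds the same 8 letters, GAGGAAGT, on one strand or the other. The windows of Itgam and Itgb5 do not hold GAGGAAGT, so it is not shared by all of these members. Capitals mark every motif found, and each window is written 5′ to 3′ on the strand of its gene.
Itga11, chr9:62677605-62677904, plus strand: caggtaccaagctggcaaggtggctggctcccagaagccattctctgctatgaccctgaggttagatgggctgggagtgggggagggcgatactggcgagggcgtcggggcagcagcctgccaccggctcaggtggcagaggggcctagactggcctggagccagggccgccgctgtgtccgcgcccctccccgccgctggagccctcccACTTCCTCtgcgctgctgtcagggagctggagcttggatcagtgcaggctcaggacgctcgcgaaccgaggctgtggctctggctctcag
Itgb7, chr15:102231886-102232185, minus strand: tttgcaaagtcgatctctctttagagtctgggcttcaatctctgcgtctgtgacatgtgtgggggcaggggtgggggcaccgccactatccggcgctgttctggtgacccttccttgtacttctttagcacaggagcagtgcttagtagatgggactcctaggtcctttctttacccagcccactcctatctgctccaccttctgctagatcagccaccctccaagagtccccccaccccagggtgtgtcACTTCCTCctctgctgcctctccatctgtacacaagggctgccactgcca
Itgb6, chr2:60673644-60673943, minus strand: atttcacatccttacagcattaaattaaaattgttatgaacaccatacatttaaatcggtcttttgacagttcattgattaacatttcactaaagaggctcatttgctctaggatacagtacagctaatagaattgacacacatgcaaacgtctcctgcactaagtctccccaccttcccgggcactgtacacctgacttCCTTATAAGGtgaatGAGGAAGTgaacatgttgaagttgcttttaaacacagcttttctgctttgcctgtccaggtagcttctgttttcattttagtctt

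In Itga11 and Itgb7 the capitals are GAGGAAGT read on the other strand, and in Itgb6 they are a CArG box followed by GAGGAAGT. The Itgb6 window lies at a start inside the gene. The window at its outermost start, chr2:60722554-60722853, held none of the 6 motifs searched. GAGGAAGT, a form of the site that ETS factors bind, was in 5 of the 35 member windows (14.3%) and in 3.20% of all 32851 windows of the same length. The CArG box, the site of serum response factor, was in 3 member windows (8.57%), those of Fermt2, Itgb6 and Vcl, and in 1.63% of all windows. GGGCGG was in 21 (60.0%) against 35.7%, TATAAA in 1 (2.86%) against 13.6%, CATTCC in 6 (17.1%) against 14.7% and TGANTCA in 4 (11.4%) against 7.81%. Both strands were searched, the motifs were chosen after the promoters had been looked at, and a match is a description of the letters. Lims1 and Itgav also held GAGGAAGT and had log2 fold changes of 0.02 and -0.07.

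The proteins that bind the integrin tail and set its activation varied little. Itgb1bp2, Tln1, Tln2 and Vcl had log2 fold changes between -0.0038 and 0.06, all with intervals that include 0. Tln1, the talin of all tissues, ranged from 19.52 to 25.49 TPM, and Tln2, the talin enriched in striated muscle, from 12.83 to 17.68 TPM. Tln2 stood at 0.657 to 0.789 of Tln1 in Nup210-/- and at 0.673 to 0.749 in Nup210+/+ muscle. Fermt2, the kindlin of most tissues, had 129.86, 121.50, 139.49 and 116.68 TPM in Nup210-/- and 116.87, 116.43, 115.28 and 125.40 TPM in Nup210+/+ libraries. The genotypes overlapped, with Nup210+/+ replicate 4 the highest of its group. This gave a log2 fold change of 0.19 (SE 0.0819, unadjusted p = 0.0458, limma adjusted p = 0.341), past the unadjusted limit in 2 of 8 leave-outs, and 0.0954 with TPM as deposited.

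In the complex of ILK, PINCH and parvin, Ilk, the pseudokinase that joins the beta tail to parvin, had 36.28, 32.64, 43.38 and 34.91 TPM in Nup210-/- and 45.80, 45.09, 46.05 and 47.07 TPM in Nup210+/+ muscle. Its Nup210-/- libraries all lay below as deposited and overlapped once scaled, where Nup210-/- replicate 3 passed the lowest Nup210+/+ library. The estimate was a log2 fold change of -0.23 (SE 0.0894, unadjusted p = 0.0303, limma adjusted p = 0.295), past the unadjusted limit in 3 of 8 leave-outs. Exons of Rrp8 and Taf10 overlap Ilk on the opposite strand. The PINCH genes Lims1 and Lims2 had log2 fold changes of 0.02 and -0.07. Parva and Parvb, the widespread parvin and the one enriched in muscle and heart, had estimates on opposite sides, -0.20 (95% interval -0.51 to 0.10) and 0.23 (-0.07 to 0.54). Parvb stood at 2.23 to 3.15 times Parva in Nup210-/- and at 1.61 to 2.80 times in Nup210+/+ muscle, where replicate 4 lay inside the Nup210-/- range.

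Among the kinases and their scaffolds, Pxn was the member past the unadjusted limit. Pxn encodes paxillin, the adaptor on which focal adhesion kinase docks, and had 31.69, 32.04, 33.46 and 30.83 TPM in Nup210-/- and 31.93, 29.48, 31.90 and 25.51 TPM in Nup210+/+ muscle. The values overlapped as deposited and came apart on scaled values, at 32.5 to 33.5 against 26.7 to 31.1. Its log2 fold change was 0.20 (SE 0.0598, unadjusted p = 0.00823, limma adjusted p = 0.200), and 0.109 with TPM as deposited, where it no longer lay past the unadjusted limit. Ptk2, focal adhesion kinase itself, ranged from 9.18 to 11.4 TPM with a log2 fold change of 0.02 (95% interval -0.14 to 0.18). Src, Bcar1 (the docking protein p130Cas) and Tgfb1i1 (Hic-5) had log2 fold changes of -0.01, 0.10 and -0.0031.

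Both actin-linked adaptors past the unadjusted limit were lower. Zyx, which encodes zyxin of stretched stress fibers, had 13.23, 14.18, 12.60 and 11.57 TPM in Nup210-/- and 19.00, 19.65, 21.55 and 13.26 TPM in Nup210+/+ muscle. The genotypes met at Nup210+/+ replicate 4, and the other 3 Nup210+/+ libraries lay above all Nup210-/- libraries. Nup210-/- and Nup210+/+ muscle differed by a log2 fold change of -0.37 (SE 0.109, unadjusted p = 0.00745, limma adjusted p = 0.195). Without Nup210+/+ replicate 4 it was -0.48 with an adjusted p of 0.0704, the lowest adjusted p of any member under any alternative. Exons of Epha1 overlap Zyx on the opposite strand.

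Flna, the filamin of non-muscle cells that crosslinks actin and binds beta chains, had 20.61, 22.66, 18.89 and 26.16 TPM in Nup210-/- and 26.71, 32.80, 35.24 and 27.41 TPM in Nup210+/+ muscle. The lowest Nup210+/+ library lay just above the highest Nup210-/- library as deposited, and they overlapped once scaled. The fitted log2 fold change was -0.36 (SE 0.117, unadjusted p = 0.0129, limma adjusted p = 0.221). Flnc, its muscle counterpart, had a log2 fold change of 0.07 (95% interval -0.20 to 0.34), and stood at 5.06 to 6.79 times Flna in Nup210-/- and at 3.24 to 5.91 times in Nup210+/+ muscle. Vasp and Tns1 had log2 fold changes of -0.05 and 0.16 with intervals that include 0.

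**Figure D5:**
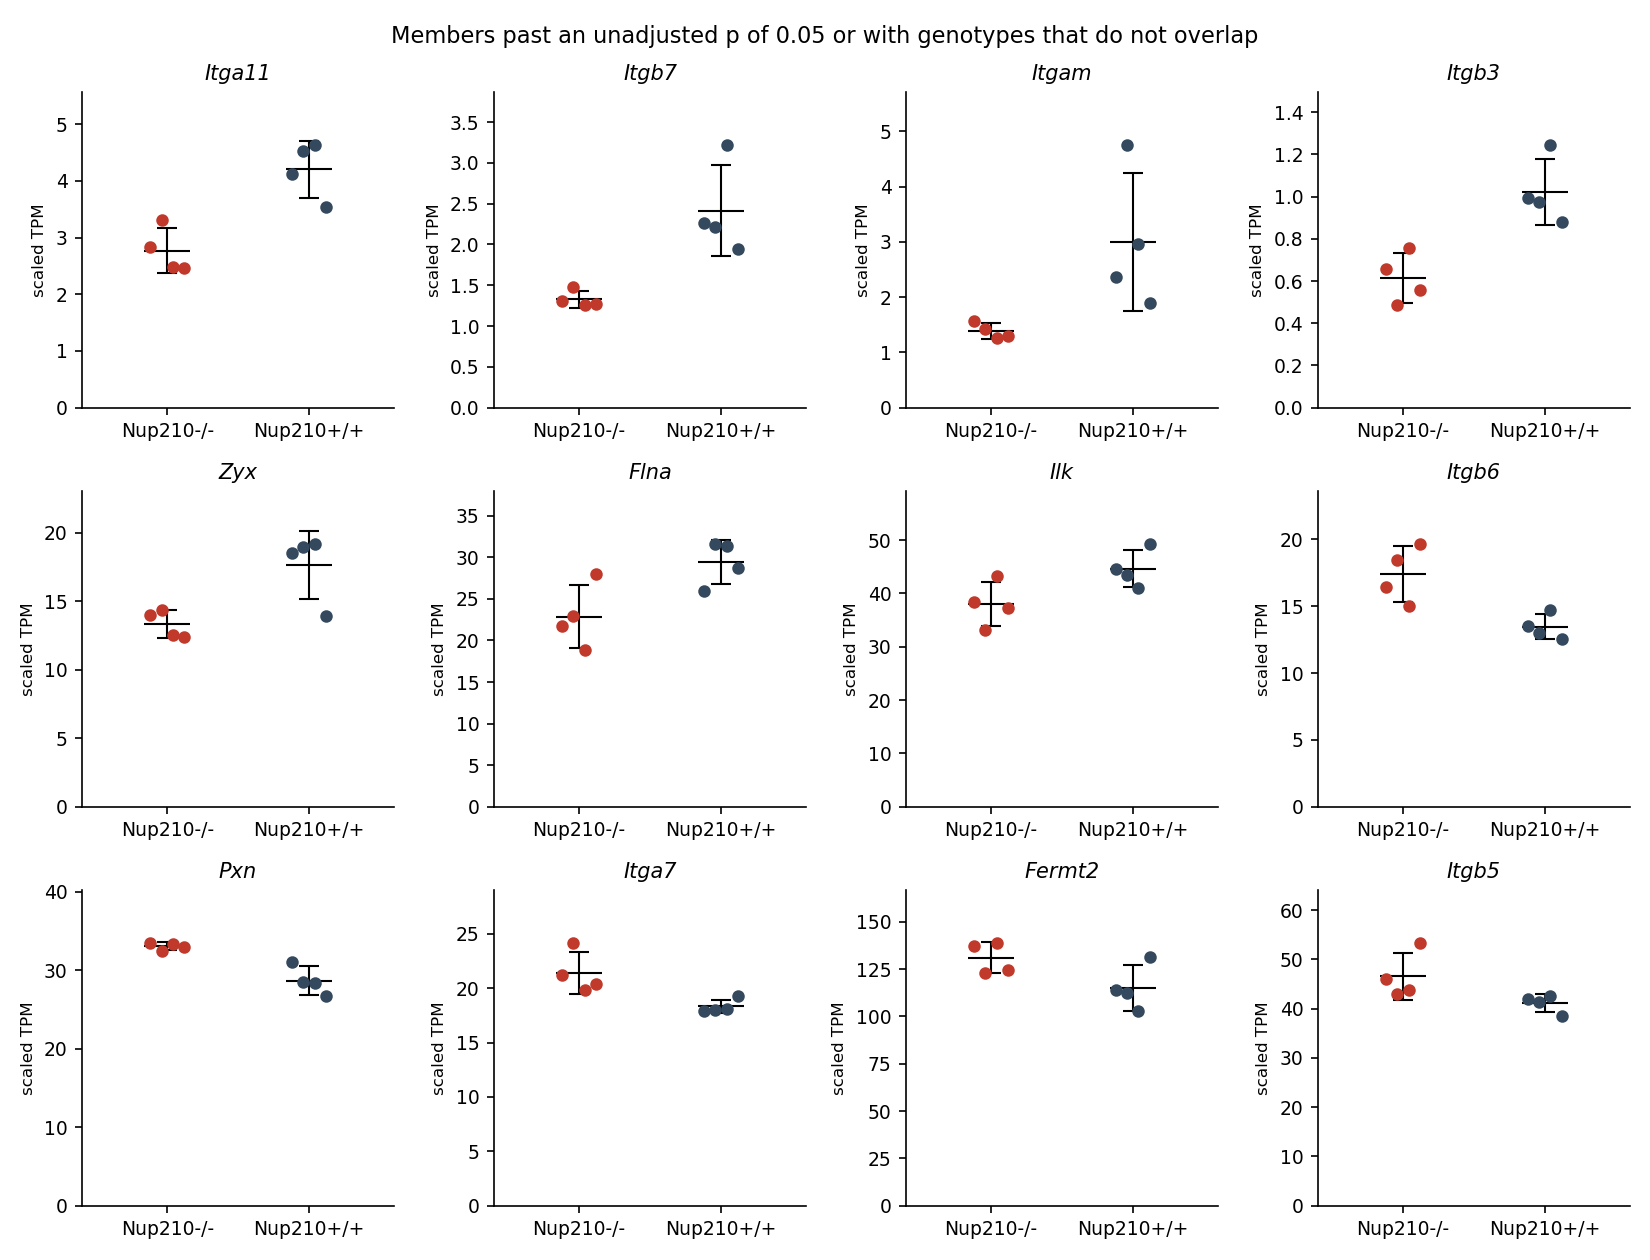
Scaled TPM (vertical axes, each from 0) of the 12 tested members past an unadjusted p of 0.05 or with genotypes that do not overlap, with 1 point for each of 4 libraries a genotype, the mean as a horizontal line and the SD as error bars. Itga11, Itgb7, Itgam and Itgb3 lie lower in all Nup210-/- libraries and Itgb6, Pxn, Itga7 and Itgb5 higher, while Zyx, Flna, Ilk and Fermt2 overlap.

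Of the 38 tested members, 26 passed neither the unadjusted limit nor the overlap criterion, with log2 fold changes from -0.26 (Itgb2) to 0.25 (Itgb4). The genotypes did not overlap on scaled values for 7 of 18 tested chains and 1 of 20 intracellular members, beside 4.60% lower and 4.78% higher over all tested genes. At an unadjusted p of 0.05 (limma) the counts were 6 of 18 and 5 of 20, beside 7.18% lower and 7.00% higher over all tested genes. A difference between chains and intracellular members was not tested.

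Neighbouring genes of the same pathways were read from 3 further lists. Of 50 other focal adhesion genes, 44 were tested and none passed an adjusted p of 0.05. At an unadjusted p of 0.05, 8 were lower (18.2%) and 1 was higher (2.27%), against 7.18% and 7.00% of all tested genes, and the median log2 fold change was -0.10 beside -0.0061 over all. Sorbs2, an adaptor of Z-discs and adhesions that binds vinculin, was the one that was higher, at 38.15, 34.22, 40.65 and 40.56 TPM against 31.34, 30.47, 28.99 and 21.40 TPM. Its genotypes did not overlap (log2 fold change 0.54, SE 0.107, limma adjusted p = 0.102). Rap1b, a small GTPase that activates integrins, had 31.01, 33.19, 30.06 and 29.52 against 41.57, 50.81, 51.01 and 34.78 TPM (log2 fold change -0.40, SE 0.0926, limma adjusted p = 0.126).

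Of 25 integrin ligand genes, 24 were tested and none passed an adjusted p of 0.05, with 7 lower (29.2% against 7.18% of all tested genes) and 1 higher (4.17% against 7.00%) at the unadjusted limit and a median of -0.17. Fbn1, fibrillin 1 of microfibrils, averaged 9.18 ± 1.09 against 14.1 ± 1.56 TPM (SD, n = 4, log2 fold change -0.48, limma adjusted p = 0.111). Thbs1, thrombospondin 1, averaged 3.57 ± 0.801 against 6.40 ± 0.959 TPM (-0.62, adjusted p = 0.122). The list shares Col1a1 and Col3a1 with the fibroblast markers.

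Of 18 genes of serum response factor, its coactivators and known targets, 17 were tested and 2 fell past an adjusted p of 0.05, with 6 lower (35.3% against 7.18% of all tested genes) and none higher (against 7.00%) at the unadjusted limit and a median of -0.20. Xirp1, an actin-binding protein of muscle adhesions, had 66.53, 68.68, 68.49 and 61.57 TPM in Nup210-/- and 148.38, 110.46, 120.71 and 133.44 TPM in Nup210+/+ muscle. The genotypes lay far apart (log2 fold change -0.84, SE 0.106, limma adjusted p = 0.0490). Abra, which promotes the activity of serum response factor through actin, had 176.78, 179.63, 217.31 and 183.84 against 333.54, 285.65, 308.49 and 306.55 TPM (-0.61, SE 0.0820, adjusted p = 0.0490). Both calls lay at the edge of the limit. They held under 6 of 18 alternatives and in none of the 8 leave-outs of 1 library, where the adjusted p ran from 0.0521 to 0.139 for Xirp1 and from 0.0551 to 0.160 for Abra.

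Markers of muscle fibers set the other side of the tissue. All 9 had higher estimates in Nup210-/- muscle on scaled values, none past an adjusted p of 0.05. As deposited, their summed TPM ranged from 92837 to 99562 against 85586 to 91521 without overlap. The sums overlapped once divided by the scaling factors. Nup210+/+ replicate 4 (91521 TPM, factor 0.954) then passed Nup210-/- replicate 2 (92837 TPM, factor 0.987). Summed markers of Schwann cells and satellite cells overlapped between the genotypes, with and without Nup210+/+ replicate 2. As deposited, those of endothelium (120 to 129 against 116 to 133 TPM) overlapped only through that library. Deposited sums of mural and smooth muscle cells (147 to 156 against 154 to 191 TPM) and tendon (81.6 to 127 against 111 to 188 TPM) overlapped too. In both, the highest Nup210-/- library, replicate 2 (156 and 127 TPM), passed the lowest Nup210+/+ library, replicate 2 (154 and 111 TPM). Every other Nup210-/- library lay below Nup210+/+ replicate 2, so these overlaps rested on both libraries. Without Nup210+/+ replicate 2 the lowest deposited Nup210+/+ sums were 132, 160 and 136 TPM, above every Nup210-/- library. For endothelium this did not hold once the sums were divided by the scaling factors. Nup210+/+ replicate 3 (133 TPM, factor 1.12) then fell below Nup210-/- replicate 1 (120 TPM, factor 0.946). Of the 8 endothelial markers, 5 had lower and 3 had higher estimates in Nup210-/- muscle. The 9 muscle fiber markers were Acta1, Ckm, Myh4, Myh1, Myh2, Actn3, Tnnt3, Mylpf and Des, with no myosin of slow fibers. How far the members higher on scaled values, Itga7, Itgb5, Itgb6, Pxn and Fermt2, moved with these markers was not tested.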

How the data were processed

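RNA from quadriceps muscle of 4 Nup210-/- and 4 Nup210+/+ mice was analysed, with groups and replicate numbers taken from the labels. The authors selected polyadenylated RNA, prepared directional libraries, sequenced single-end reads, trimmed them with cutadapt 2.3, aligned them to mm10 with STAR 2.7.0d and quantified genes with RSEM 1.3.1 and Ensembl release 84. The libraries were pooled for sequencing only, and TPM were deposited per gene and library, with no columns of fold changes or p-values. Their DESeq2 test used estimated counts, which were not analysed here.

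Each library was divided by a median-of-ratios factor from the 15225 genes above 0 throughout. For the 14229 genes that averaged at least 0.5 TPM, log2(scaled TPM + 1) was fitted with limma 3.58.1 (R 4.3.3; eBayes with trend; genotype as the only term), with Benjamini-Hochberg adjustment at 0.05. The pseudocount understates changes of low genes. For single members, a two-sided exact permutation test covered the 70 labelings. The fit was tested on simulated data in which 200 of the more abundant genes were changed. At an adjusted p of 0.05 it recovered 54.0% of them at a log2 size of 0.5 and 92.55% at a size of 1. Changes between 0 and 0.5 and changes of low genes were not simulated. Gene models were taken from GENCODE M21, where 42 of 43 rows matched.

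Members and lists were chosen with earlier results of these data known, so no test over the list was run. All members are named. Full values are given for those past an unadjusted or adjusted p of 0.05, those whose genotypes do not overlap on scaled values and the extreme fold changes, and, of each further list, for genes past an adjusted p of 0.05 and the 2 with the lowest p.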

Additional observations from a re-analysis of the deposited data

Results flagged for a closer look

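A single library stood far from the other 3 of its genotype for 5 members: the gap to its nearest neighbour, divided by the range of the group, exceeded the 95% critical value of Dixon for 4 samples. They were Itga7 in Nup210+/+ replicate 3 (20.31 TPM against 18.37 to 18.7, gap share 0.830), Itga5 in Nup210+/+ replicate 1 (5.33 against 4.5 to 4.64 TPM, 0.831), Fermt2 in Nup210+/+ replicate 4 (125.4 against 115.28 to 116.87 TPM, 0.843), Lims2 in Nup210+/+ replicate 3 (22.28 against 14.05 to 14.69 TPM, 0.922) and Bcar1 in Nup210+/+ replicate 1 (6.42 against 4.53 to 4.73 TPM, 0.894). Each was the highest library of its group, and the values are TPM as deposited.

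The same measure marked 6 sums of marker genes. In Nup210+/+ replicate 2 the granulocyte precursor markers were high (381.69 against 0.31 to 2.12 TPM, 0.995), as were the neutrophil markers (18.47 against 0.87 to 1.64 TPM, 0.956), and the endothelial markers were low (115.95 against 132.27 to 133.15 TPM, 0.949). Tendon markers were high in Nup210-/- replicate 2 (127.26 against 81.62 to 83.98 TPM, 0.948). Epithelial markers, near 0 throughout, were highest in Nup210-/- replicate 2 (0.14 against 0.02 to 0.04 TPM, 0.833) and in Nup210+/+ replicate 3 (0.59 against 0.12 to 0.15 TPM, 0.936). Of 130 groups examined 11 were marked, where chance marks about 1 in 20, or 6.5.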

How the results depend on the processing

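No member passed an adjusted p of 0.05 under any of 11 other settings or 8 leave-outs of 1 library (lowest 0.0704), and of 720 estimates under them 654 kept their direction and 66 reversed. The reversals fell on 20 members, none with a main log2 fold change beyond 0.098 in size, so the sign of these members is not set by the data. With TPM as deposited they were Itga3 (-0.036), Itga6 (-0.00152), Itga9 (-0.0763), Itgb1 (-0.0928), Itgb1bp2 (-0.0673), Tln2 (-0.0244), Vcl (-0.0565), Lims1 (-0.0764), Ptk2 (-0.0683) and Flnc (-0.0253), and the median of the members was -0.079. With library weights they were Itga3 (-0.0875), Itga4 (0.0189), Tln1 (0.00178), Lims1 (-0.0282), Bcar1 (-0.0181) and Flnc (-0.0199). With upper-quartile scaling they were Itga4 (0.00719), Tln1 (0.0213), Src (0.00205) and Tgfb1i1 (0.0183), with a pseudocount of 0.1 Itga9 (-0.00289), Src (0.00207) and Tgfb1i1 (0.000414), and with 0.5 Itga9 (-0.00101). The cause was not tested.

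Leaving out 1 library reversed Itga3 (range -0.0791 to 0.154), Itga1 (-0.106 to 0.00451), Itga8 (-0.163 to 0.0384), Itgav (-0.177 to 0.05), Itga4 (-0.143 to 0.0763), Itga9 (-0.146 to 0.128), Itgb1 (-0.0048 to 0.022), Tln1 (-0.0352 to 0.0254), Vcl (-0.00925 to 0.0782), Lims1 (-0.0347 to 0.12), Lims2 (-0.125 to 0.0443), Ptk2 (-0.0126 to 0.0614), Src (-0.157 to 0.0889), Tgfb1i1 (-0.109 to 0.114), Vasp (-0.0893 to 0.0514) and Flnc (-0.0508 to 0.141).

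Itga11, Itgb7, Itgam, Itgb6, Zyx and Flna stayed past an unadjusted p of 0.05 under all 18 alternatives run on each, and Itga7 and Pxn under all but TPM as deposited. Between 8 and 13 members lay past it in all, with 8 to 12 under leave-outs. Over all genes the number past an adjusted p of 0.05, 16 in the main fit, was 1 with no filter, 27 with a mean TPM of at least 1, 0 with upper-quartile scaling, 0 with eBayes without trend, 84 with library weights and 0 to 10 under leave-outs (unadjusted, 2071 genes with upper-quartile scaling and 1952 without trend). The replicate numbers are shared between the genotypes, and whether they pair the mice is not stated in the sources used here. Deviations of same-numbered libraries correlated at -0.033 to 0.086, which cannot settle it. With the number as a replicate block 0 genes passed an adjusted p of 0.05 (1850 unadjusted), and 8 members the unadjusted limit. Summing rows of one symbol was added after the data were seen. Depth is unknown, so no counting error can be given.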

Other observations

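Some of the other focal adhesion genes at an unadjusted p under 0.05 are given here, chosen after their values were seen. None of them passed an adjusted p of 0.05. Nedd9, a relative of Bcar1, averaged 2.08 ± 0.103 TPM in Nup210-/- and 3.34 ± 0.452 TPM in Nup210+/+ muscle (SD, n = 4, log2 fold change -0.42, limma adjusted p = 0.188). The kinase Csk averaged 3.99 ± 0.403 against 6.33 ± 1.99 TPM (-0.44, adjusted p = 0.275), and its log2 fold change was -0.27 without Nup210+/+ replicate 2 (limma adjusted p = 0.330). Apbb1ip and Fermt3, both of blood cells, had log2 fold changes of -0.59 and -0.99 (adjusted p = 0.275 and 0.333), with Fermt3 at 9.31 TPM in Nup210+/+ replicate 2 and at most 2.24 TPM in the other libraries. Without that library the log2 fold changes were -0.40 for Apbb1ip (limma adjusted p = 0.391), no longer past the unadjusted limit, and -0.51 for Fermt3 (adjusted p = 0.313).

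Among the ligand genes at the same unadjusted limit, Lamc1, the common gamma chain of muscle laminins, averaged 26.2 ± 0.382 against 36.0 ± 6.43 TPM (SD, n = 4, log2 fold change -0.33, limma adjusted p = 0.172). Postn, periostin, averaged 5.44 ± 0.819 against 8.70 ± 1.11 TPM (-0.51, adjusted p = 0.175), and the collagens Col1a1 and Col3a1 had log2 fold changes of -0.55 and -0.47 (adjusted p = 0.192 and 0.202). Vcam1, a ligand of Itga4 on vessels, was the one with a higher mean, at 3.68 ± 0.352 against 3.16 ± 0.320 TPM (0.24, adjusted p = 0.267).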
